A study of Mus musculus with 11 samples.

Results

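The 10 genes described here encode the ligands, receptors and central SMAD proteins of the TGF-beta pathway: Tgfb1, Tgfb2, Tgfb3, Ltbp1, Tgfbr1, Tgfbr2, Tgfbr3, Smad2, Smad3 and Smad7. They were chosen by name, as 10 of the 22196 genes measured. The study sequenced RNA of the inguinal mammary gland in 11 mouse libraries, 6 titled Knockout and 5 titled Wild-Type. Every mouse carried floxed Tsc1 on both chromosomes (Tsc1-fl/fl). Knockout mice also carried 1 copy of a Cre transgene under the adipocyte promoter of Adipoq (Adipoq-Cre-Tg/+), and Wild-Type mice carried none (Adipoq-Cre-+/+). All were on normal chow, the age label was PND16.5, and the glands were collected 16 days after delivery. The labels do not state outright that the mice were lactating, nor that the mice of a group came from separate litters, so p-values measure only the spread between these libraries. The RNA came from the whole gland, whereas the transgene is active in adipocytes, so levels are sums over many cell types.

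TGF-beta ligands are secreted in a latent form, folded into their own propeptide and tied to the matrix by latent TGF-beta binding proteins, and integrins are among the proteins that release them. The freed ligand binds the type II receptor, which phosphorylates the type I receptor, which in turn phosphorylates SMAD2 and SMAD3. SMAD7 is an inhibitory SMAD that acts at the type I receptor and is itself a transcriptional target. In the mammary gland the pathway is known for restraining growth of the ducts and for its part in the involution that follows weaning.

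Library depth was between 25817975 and 37894237 estimated reads. Transcripts of 8 milk protein genes summed to between 414300 and 747900 CPM (reads as a rate of the TMM-adjusted library total, not corrected for gene length), so milk gene expression was high in every library. Tsc1 was at 8.31 to 11.9 CPM in Knockout, against 9.55 to 12.2 in Wild-Type, ranges that overlap. Knockout 1 had the lowest milk protein sum and the highest sum of 7 skeletal muscle markers, 2041 CPM against at most 177 CPM in Wild-Type. Knockout 2 had the highest sums of luminal, myoepithelial and fibroblast markers. The B cell marker sum was 0.808 to 13.8 CPM in Knockout (median 2.18) and 1.93 to 69.8 CPM in the Wild-Type libraries (median 15.8). Over all 12716 genes that passed the filter on low counts, edgeR's quasi-likelihood test called 7 genes at a Benjamini-Hochberg adjusted p under 0.05.

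All 10 genes passed that filter, with 38 to 3542 estimated reads per library. On a per-length scale (TPM, over transcripts with a listed length of at least 500 bases), the type II receptor Tgfbr2 had the highest mean level, 15.3 ± 4.80 TPM (SD, n = 11 libraries). Tgfb3 followed at 7.69 ± 5.68, Smad3 at 6.46 ± 4.24 and Smad2 at 4.87 ± 0.901 TPM. Tgfb2 was at 3.12 ± 0.714, Tgfb1 at 3.08 ± 0.786, Tgfbr3 at 1.94 ± 0.729 and Tgfbr1 at 1.75 ± 0.535 TPM. Smad7, at 0.825 ± 0.203, and Ltbp1, at 0.245 ± 0.0865 TPM, were lowest. Tgfbr2 was above Tgfb3 in all 11 libraries and Smad2 above Tgfb2 in all 11, but Tgfb3 was above Smad3 in only 6 and Tgfb2 above Tgfb1 in 7. The order of the means was not the same in both genotypes, a difference that was not tested. In Wild-Type the mean of Smad2, 4.46 ± 0.665 TPM, was above those of Tgfb3 (4.30 ± 1.57) and Smad3 (4.23 ± 0.765), whereas in Knockout they were 5.22 ± 0.980, 10.5 ± 6.44 and 8.32 ± 5.13 TPM. Tgfb1 was likewise above Tgfb2 in Wild-Type (2.90 and 2.55 TPM) and below it in Knockout (3.23 and 3.59 TPM). TPM carries no TMM scaling, so these levels are to be read within a genotype and not between genotypes. Mean TPM of Tgfb1, Smad2 and Ltbp1 was higher in Knockout, whereas their fitted log2 differences, given below, were negative. Only the last step of the order over all libraries, from Smad7 to Ltbp1, had ranges that did not overlap.

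None of the 10 genes passed the adjusted threshold in edgeR, where 0.0550% of all genes tested passed, and none did in DESeq2, where 1.09% passed. At an unadjusted p under 0.05, 2 of the 10 (Tgfb3 and Tgfbr1, both higher in Knockout) passed, against 12.4% of all genes tested. The fitted level was higher in the Knockout group for 6 genes and lower for 4, against 48.3% of all genes higher. The median log2 fold change was 0.25 over the 10 genes and -0.0076 over all genes. No gene of the 10 had Knockout and Wild-Type ranges that did not overlap, against 1.32% of all genes. The values per library and the fitted differences follow by role, ligands first.

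**Figure D1:**
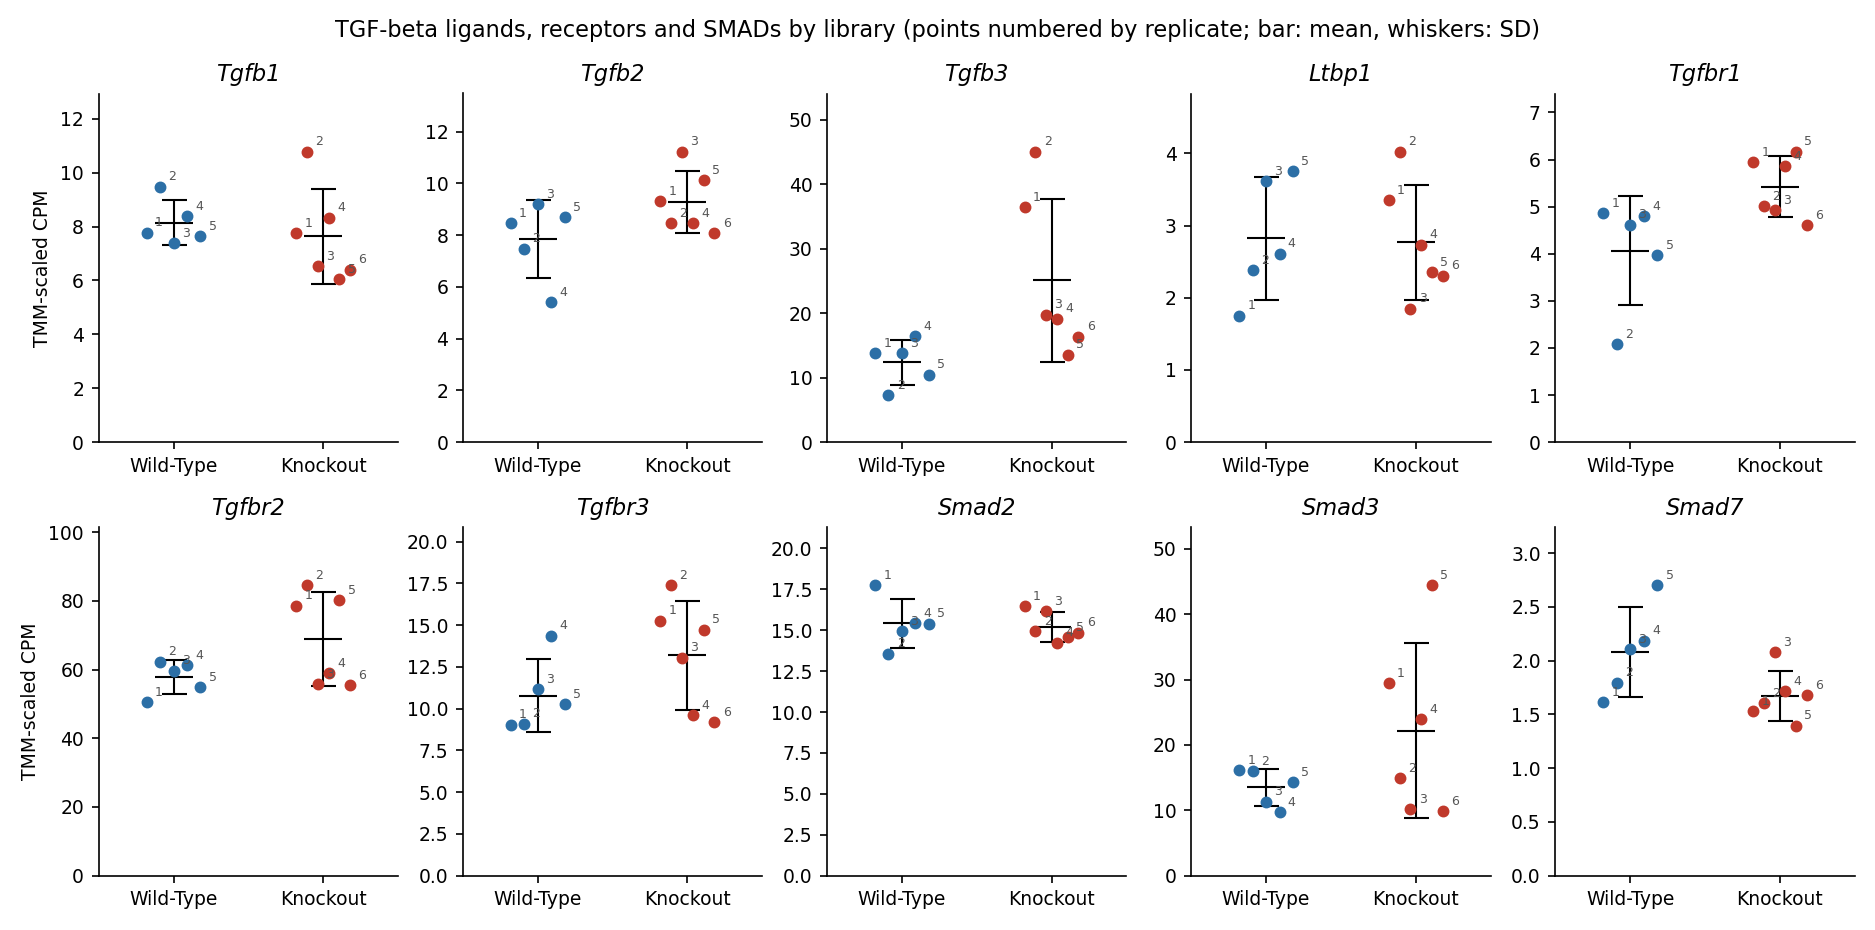
Level of each of the 10 genes in every library, as TMM-scaled CPM on a linear axis from 0 in each panel, with points for libraries (blue Wild-Type, red Knockout), bars for the group mean and whiskers for the SD. The 2 highest Tgfb3 points are Knockout 2 at 45.1 CPM and Knockout 1 at 36.5 CPM, and the highest Smad3 point is Knockout 5 at 44.5 CPM.

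Tgfb3 (ENSMUSG00000021253, chr12:86056745-86079041, GRCm38) encodes the TGF-beta isoform that rises in the gland when milk stays in the alveoli. Its levels in Knockout 1 to 6 were 36.5, 45.1, 19.8, 19.2, 13.6 and 16.4 CPM. In Wild-Type 1 to 5 they were 13.8, 7.31, 13.8, 16.46 and 10.5 CPM. Thus 4 of 6 Knockout libraries lay above every Wild-Type library, and the other two lay within the Wild-Type range. The fitted difference was the largest of the 10 genes, a log2 fold change of 1.02 ± 0.34 (SE; 2.02-fold), with an edgeR unadjusted p of 0.0118 and an adjusted p of 0.310. DESeq2 gave an adjusted p of 0.0694, and over the other fits run the adjusted p lay between 0.233 and 0.598. Without Knockout 1 and Knockout 2 together, a fit chosen after seeing the data, the log2 difference was 0.48 ± 0.21 (edgeR adjusted p = 0.494). These are also the 2 libraries with the lowest milk protein sums, the highest fibroblast marker sums and the highest skeletal muscle marker sums (2041 and 187 CPM, the next being 177 CPM in Wild-Type 1). The part of any of these in the Tgfb3 difference was not tested. In bulk tissue, a change in the number of cells of a type cannot be told apart from a change in RNA per cell. On the opposite strand, Tgfb3 is overlapped at its end by the protein-coding gene Ttll5, and the strand setting used in counting is not given in the sources used here.

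Tgfb1 (ENSMUSG00000002603, chr7:25687002-25705077), the isoform best known from immune and stromal cells, was at 6.06 to 10.8 CPM in Knockout, with a median of 7.15. Wild-Type 1 to 5 were at 7.78, 9.48, 7.38, 8.38 and 7.65 CPM. The groups overlapped, and the log2 difference was -0.09 ± 0.14 (edgeR adjusted p = 0.835; 95% interval -0.40 to 0.22). With 1 library left out it ranged from -0.21 without Knockout 2 to -0.025 without Knockout 5. The highest Knockout level was in Knockout 2 and the highest Wild-Type level in Wild-Type 2.

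Tgfb2 (ENSMUSG00000039239, chr1:186622792-186705989), the isoform with low affinity for the type II receptor on its own, was at 8.08 to 11.2 CPM in Knockout, with a median of 8.90. Wild-Type 1 to 5 were at 8.48, 7.48, 9.20, 5.41 and 8.70 CPM. There were 3 libraries of the Knockout group above every Wild-Type library. The fitted log2 difference was 0.24 ± 0.14 (edgeR adjusted p = 0.496), and 0.14 without Wild-Type 4, the lowest library.

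Ltbp1 (ENSMUSG00000001870, chr17:75005568-75392512), a latent TGF-beta binding protein of the matrix, had few reads, 50 to 151 per library. It was at 1.85 to 4.02 CPM in Knockout (median 2.54) and at 1.75, 2.38, 3.61, 2.61 and 3.76 CPM in Wild-Type 1 to 5. The ranges nearly coincided, and the log2 difference of -0.03 ± 0.23 (edgeR adjusted p = 0.975) had a 95% interval of -0.54 to 0.48. Its sign turned when any of 5 libraries was left out.

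The make-up of the ligand pool was compared as each gene's share of summed ligand TPM. Tgfb3 made up 53.2% ± 9.23 of it in Knockout (SD, n = 6) and 39.0% ± 11.7 in Wild-Type (n = 5). The difference of 14.2 percentage points had an exact two-sided permutation p of 0.0671, or 0.101 adjusted over the 3 family measures fixed for the test. A 150-base transcript of Tgfb1 with at most 2 reads raised the TPM of that gene in some libraries, to 4.51 TPM in Knockout 2 for that transcript alone. With transcripts under 500 bases left out, a choice made after seeing the data, the Tgfb3 share was 57.2% against 43.0% (exact permutation p = 0.0346; 0.104 adjusted). On the same scale Tgfb1 made up 15.1% to 24.1% in Knockout and 25.2% to 40.4% in Wild-Type. Those ranges did not overlap, a pattern noticed after the values were seen and therefore not tested. With all transcripts counted, as planned, the Tgfb1 shares overlapped, at 15.1% to 33.1% in Knockout and 25.2% to 53.0% in Wild-Type. On that planned scale the Tgfb2 share was 21.7% ± 7.47 in Knockout and 23.7% ± 4.43 in Wild-Type.

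**Figure D2:**
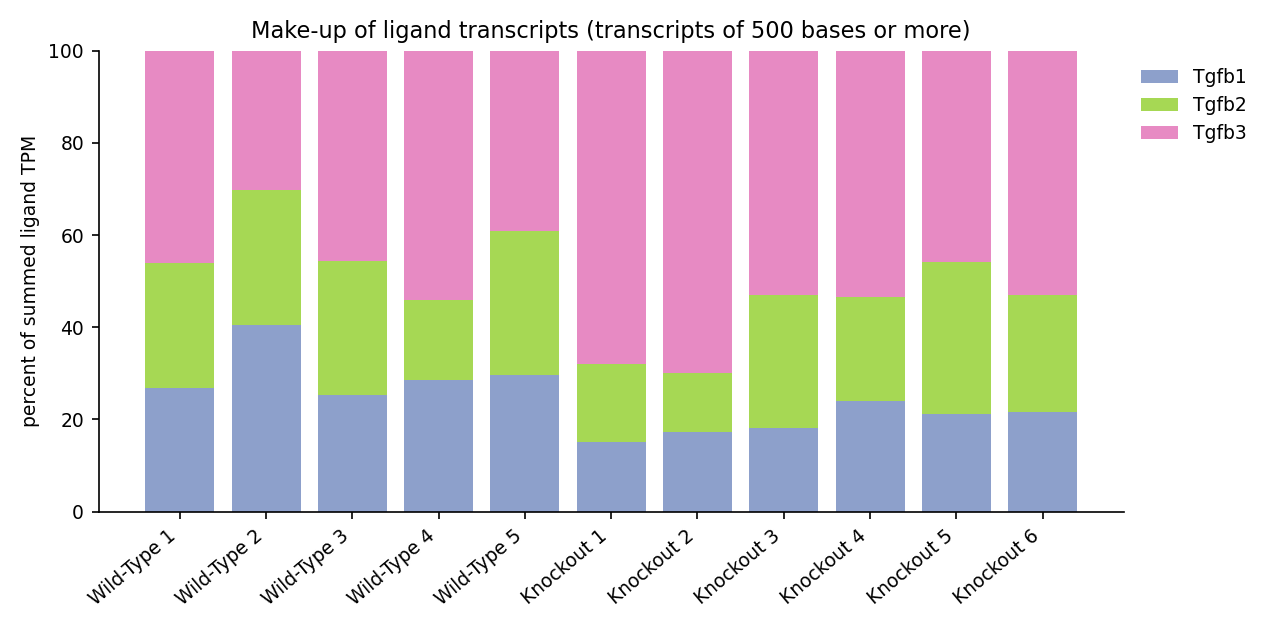
Stacked bars give the percent of summed ligand TPM that came from Tgfb1, Tgfb2 and Tgfb3 in each library, over transcripts of at least 500 bases. The Tgfb1 segment is at 15.1% to 24.1% in the 6 Knockout libraries and 25.2% to 40.4% in the 5 Wild-Type libraries, a separation not seen when shorter transcripts were counted.

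Among the receptors, Tgfbr1 (ENSMUSG00000007613, chr4:47353222-47414931), the type I receptor kinase, had the smallest unadjusted p. Its levels in Knockout 1 to 6 were 5.95, 5.01, 4.92, 5.86, 6.17 and 4.61 CPM, and in Wild-Type 1 to 5 they were 4.87, 2.09, 4.62, 4.80 and 3.97 CPM. Of the 6 libraries of the Knockout group, 5 lay above every Wild-Type library. The log2 difference was 0.41 ± 0.19 (edgeR unadjusted p = 0.0482, adjusted p = 0.401). It was 0.25 ± 0.12 (edgeR unadjusted p = 0.0571) without Wild-Type 2, the lowest library.

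Tgfbr2 (ENSMUSG00000032440, chr9:116084293-116175360), the type II receptor kinase that binds the ligand first, was at 55.5 to 84.6 CPM in Knockout (median 68.8). Wild-Type 1 to 5 were at 50.6, 62.3, 59.7, 61.4 and 55.0 CPM. Knockout 1, 2 and 5 lay above every Wild-Type library and the other three within the Wild-Type range. The log2 difference was 0.25 ± 0.13 (edgeR adjusted p = 0.438), and 0.12 without Knockout 1 and Knockout 2.

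Tgfbr3 (ENSMUSG00000029287, chr5:107106570-107289629) encodes betaglycan, the co-receptor that presents ligand, Tgfb2 above all, to the type II receptor. It was at 9.19 to 17.4 CPM in Knockout (median 13.9) and at 9.04, 9.11, 11.2, 14.4 and 10.3 CPM in Wild-Type 1 to 5. In edgeR the log2 difference was 0.29 ± 0.18 (edgeR adjusted p = 0.534), and 0.12 without Knockout 1 and Knockout 2. Tgfbr2 gave 79.8% ± 1.54 of summed receptor TPM in Knockout and 81.1% ± 3.14 in Wild-Type. The Tgfbr3 share differed by 0.487 percentage points (exact permutation p = 0.532), and by 0.0706 without Wild-Type 2 and 1.05 without Wild-Type 4.

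Within the coding sequence, the 2 annotated transcripts of Tgfbr2 that had reads differ by a single exon, and so do those of Tgfb2. Both extra exons are coding exon 2 of 8 on the minus strand, keep the reading frame, and are shown because they are the only coding difference between the 2 forms whose shares are compared next. The annotated transcripts also differ at their ends. The sequences are spliced coding sequence from GENCODE M21 (GRCm38), 5′ to 3′, with the extra exon in capitals and 30 flanking bases on each side in lower case. In Tgfbr2 the exon has 75 bases (chr9:116158271-116158345) and lies in the extracellular part of the receptor. In Tgfb2 it has 84 bases (chr1:186690721-186690804) and lies in the propeptide.
Tgfbr2-202: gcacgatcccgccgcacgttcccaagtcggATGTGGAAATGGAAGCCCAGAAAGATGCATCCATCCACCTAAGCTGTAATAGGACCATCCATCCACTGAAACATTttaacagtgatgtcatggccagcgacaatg
Tgfb2-206: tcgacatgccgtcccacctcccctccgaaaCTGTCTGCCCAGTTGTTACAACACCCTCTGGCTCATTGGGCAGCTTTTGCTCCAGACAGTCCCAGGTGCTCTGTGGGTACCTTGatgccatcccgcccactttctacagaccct

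The shorter transcript, Tgfbr2-201, took 47.3%, 45.2%, 54.1%, 47.9%, 45.2% and 46.9% of the reads of Tgfbr2 in Knockout 1 to 6. In Wild-Type 1 to 5 it took 58.1%, 58.3%, 58.0%, 48.6% and 60.3%. Knockout 3 was high in its group, and Wild-Type 4 was the only Wild-Type library within the Knockout range. The difference in means was -8.91 percentage points (exact two-sided permutation p = 0.0130; 0.0682 adjusted over the 9 genes with more than 1 transcript with reads). Without Wild-Type 4 it was -10.9 points (exact permutation adjusted p = 0.0429), and over all fits run the adjusted p was 0.0429 to 0.143. In CPM, Tgfbr2-201 was at 32.7 ± 5.18 in Knockout and 32.7 ± 3.02 in Wild-Type, whereas the longer Tgfbr2-202 was at 36.3 ± 8.72 and 25.1 ± 4.11.

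For Tgfb2, the shorter Tgfb2-201 took 82.4% to 91.1% of the reads in Knockout (mean 87.1% ± 3.21) and 86.8% to 96.0% in Wild-Type (mean 91.9% ± 3.43). The difference of -4.83 points did not pass after adjustment (exact permutation p = 0.0455, 0.136 adjusted). The longer Tgfb2-206 was at 1.21 ± 0.345 CPM in Knockout, against 0.650 ± 0.297 in Wild-Type. These shares rest on how the quantifier divided reads between transcripts that overlap over most of their length. The other 7 genes gave adjusted p of 0.0682 or above. That lowest value was for Smad3, whose minor transcripts had at most 2.78 reads. Among the 7, Tgfbr1-201 took 40.8% ± 19.7 in Knockout and 41.9% ± 27.6 in Wild-Type, the largest Wild-Type SD among the 9 genes.

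**Figure D3:**
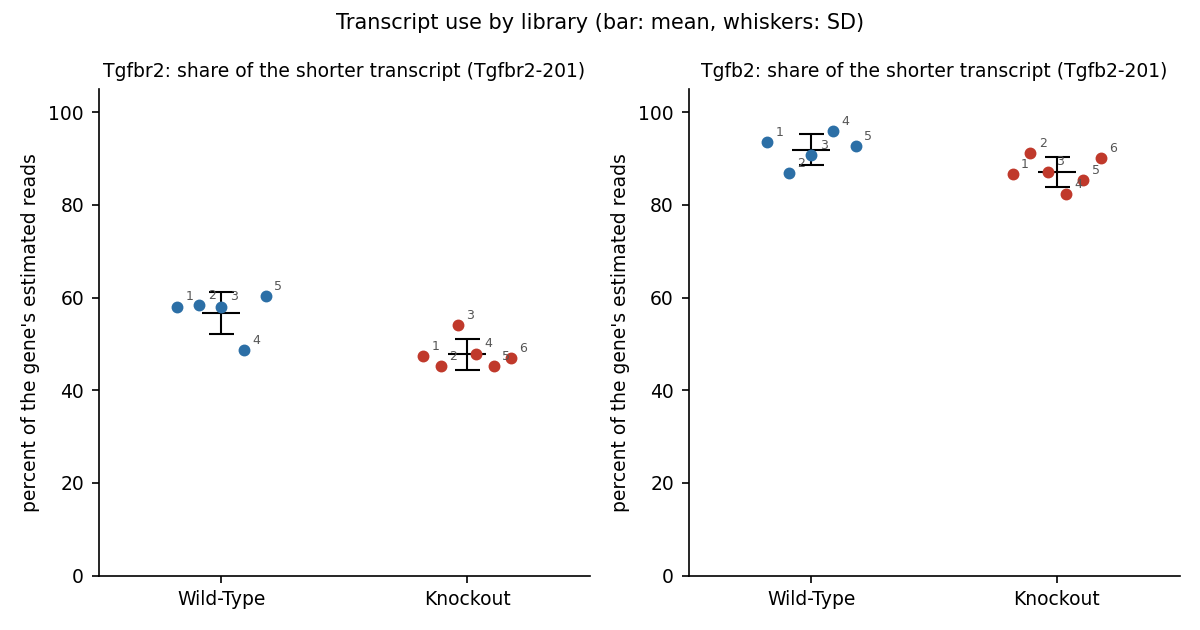
Points give, for each library, the percent of the gene's reads assigned to the shorter transcript of Tgfbr2 (left) and Tgfb2 (right), with group means as bars and SD as whiskers. For Tgfbr2, 4 of 5 Wild-Type libraries lie at 58.0% to 60.3%, and Wild-Type 4 lies at 48.6%, among the Knockout libraries.

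Smad3 (ENSMUSG00000032402, chr9:63646767-63757994), a receptor-activated SMAD that binds DNA, was the most spread of the SMAD genes. Its levels in Knockout 1 to 6 were 29.5, 15.0, 10.2, 24.0, 44.5 and 9.93 CPM, and in Wild-Type 1 to 5 they were 16.1, 16.0, 11.3, 9.72 and 14.3 CPM. Knockout 1, 4 and 5 lay above every Wild-Type library. The coefficient of variation was 60.5% in Knockout and 21.3% in Wild-Type, and the difference in spread was not tested. The log2 difference was 0.72 ± 0.39 (edgeR adjusted p = 0.484), and 0.40 ± 0.31 without Knockout 5. Knockout 5, the highest library for Smad3, was the lowest Knockout library for Tgfb3.

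Smad2 (ENSMUSG00000024563, chr18:76241580-76310963), the other receptor-activated SMAD, was the steadiest of the 10 genes, with a highest level 1.31 times the lowest over 11 libraries. It was at 14.3 to 16.48 CPM in Knockout (median 14.9) and at 17.8, 13.6, 15.0, 15.4 and 15.4 CPM in Wild-Type 1 to 5. Its log2 difference was -0.02 ± 0.08, with a 95% interval of -0.19 to 0.15 (edgeR adjusted p = 0.940).

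Smad7 (ENSMUSG00000025880, chr18:75367529-75395935), the inhibitory SMAD, had 38 to 77 reads per library. Knockout 1 to 6 were at 1.53, 1.60, 2.08, 1.71, 1.40 and 1.68 CPM and Wild-Type 1 to 5 at 1.61, 1.80, 2.11, 2.19 and 2.70 CPM. No Knockout library lay above the Wild-Type median and 3 lay below every Wild-Type library. The log2 difference was -0.32 ± 0.16 (edgeR unadjusted p = 0.0697, adjusted p = 0.444), the lowest of the 10 genes, and -0.21 (edgeR unadjusted p = 0.211) without Wild-Type 5, the highest library. The log2 ratio of Smad7 TPM to the sum of Smad2 and Smad3 was -4.10 ± 0.782 in Knockout and -3.30 ± 0.340 in Wild-Type. The difference of -0.80 had an exact permutation p of 0.0649, or 0.101 adjusted over the 3 family measures. Leaving out 1 library moved it between -0.98 (without Knockout 6) and -0.55 (without Knockout 5, the highest library for Smad3). On summed estimated counts it was -0.61.

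**Figure D4:**
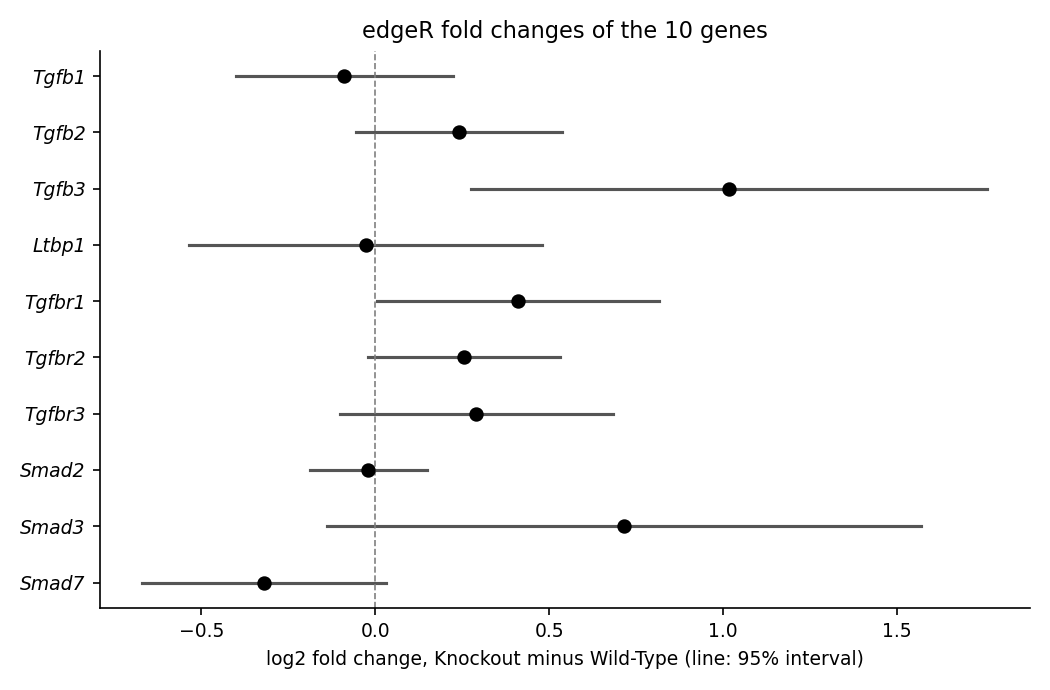
Points give the edgeR log2 fold change of each gene, Knockout minus Wild-Type, and lines its 95% interval before any adjustment for multiple tests. Only the intervals of Tgfb3 (0.27 to 1.76) and Tgfbr1 (0.0038 to 0.82) lie wholly above 0.

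How the 10 genes varied together over the 11 libraries was examined for all 45 pairs of log2 CPM, with 100000 resamples for each permutation p. No pair passed a Benjamini-Hochberg adjusted p under 0.05. The strongest was Tgfbr2 with Tgfbr3, with Pearson r = 0.805 (permutation p = 0.00253; adjusted 0.114) and Spearman rho = 0.736 (permutation p = 0.0130; adjusted 0.314). Without the 2 libraries farthest from the median of Tgfbr2, r was 0.642. Within genotypes it was 0.853 in Knockout and 0.471 in Wild-Type. The most negative pair was Smad3 with Smad7, with r = -0.637 (permutation p = 0.0346; adjusted 0.443), and -0.775 in Knockout and -0.427 in Wild-Type. For this pair Spearman rho was -0.7 (permutation p = 0.0206; adjusted 0.314). Without Knockout 1 and Knockout 5, the libraries farthest from the median of Smad3, r was -0.35. Leaving out the extremes of Smad3 also narrows its range, so this value cannot show how far the relation rests on them.

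With each genotype centred on its own mean, the gene most like each member over the 11 libraries was looked up among all genes tested, as a description. Casp4, an inflammatory caspase, was closest to Tgfb3 (r = 0.920) and Rab7b, a small GTPase, to Tgfbr2 (r = 0.930). Nolc1, a nucleolar protein gene, was closest to Smad3 (r = 0.935), and Lama4, a laminin chain gene of vessel and fat basement membranes, to Ltbp1 (r = 0.944). The others were H2-Ea-ps for Tgfb1 (0.906), Krtcap2 for Tgfb2 (0.933), Ralgapb for Tgfbr1 (0.971), Fbxo28 for Tgfbr3 (0.899), Uhmk1 for Smad2 (0.902) and Mrpl54 for Smad7 (0.933). All points share library depth and tissue make-up. Each r was picked as the highest among all genes tested over only 11 libraries. Such a search returns high values in any case, so they are no evidence of a link between the genes.

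A wider list of 71 pathway genes was examined in the same fit, and 62 of them passed the filter. None passed the adjusted threshold. At an unadjusted p under 0.05, 5 did, 3 of them higher in Knockout and 2 lower, against 6.31% and 6.08% of all genes. The list's median log2 fold change was 0.056, and 41 genes were higher and 21 lower.

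Among 10 genes of ligand release and activation, 6 were higher and 4 lower. Itgb8, the beta subunit of an integrin that activates latent TGF-beta, had 9 to 22 reads in Knockout libraries and 0 to 7 in Wild-Type libraries. It passed the filter on low counts through the Knockout group alone, so its values are a description and its place among the 3 higher genes is no support for the list. Its range was 0.330 to 0.626 CPM in Knockout, against 0 to 0.213 in Wild-Type. Its fitted log2 difference was 1.52 ± 0.44. Itgav, the alpha subunit that pairs with Itgb8, was named after its values were seen. It was at 18.8 to 26.6 CPM in Knockout, against 7.77 to 20.7 in Wild-Type, with a log2 difference of 0.53 ± 0.20 (edgeR adjusted p = 0.332). Nrros, which holds latent TGF-beta on macrophages and microglia, was at 4.65 ± 0.637 CPM in Knockout, against 6.90 ± 2.52 in Wild-Type (log2 difference -0.56 ± 0.20, edgeR adjusted p = 0.320). Its 2 highest libraries were Wild-Type 2 and Wild-Type 5. The sum of 7 macrophage markers was at 67.7 to 122 CPM in Knockout, against 86.0 to 136 in Wild-Type, and Wild-Type 2 and Wild-Type 5 were its highest libraries as well, at 132 and 136 CPM. They were also the highest for the B cell sum, at 52.7 and 69.8 CPM. The part of these cells in the Nrros difference was not tested.

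All 4 of the other SMAD genes tested were higher in the fit, with a median log2 difference of 0.27. Smad5, a receptor-activated SMAD of the BMP branch, was at 3.67 ± 0.495 CPM in Knockout, against 2.76 ± 0.554 in Wild-Type (log2 difference 0.41 ± 0.15, edgeR adjusted p = 0.339). Smad6, the inhibitory SMAD of that branch, had a log2 difference of 0.50 ± 0.26 (edgeR unadjusted p = 0.0754).

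The 17 target genes tested split into 8 higher and 9 lower, with a median of -0.045. Timp1, a metalloproteinase inhibitor, was at 7.37 ± 1.65 CPM in Knockout, against 11.1 ± 3.96 in Wild-Type (log2 difference -0.59 ± 0.23, edgeR adjusted p = 0.350). Fn1, fibronectin, was at 13.4 ± 10.1 and 7.95 ± 2.66 CPM (log2 difference 0.75 ± 0.46, edgeR unadjusted p = 0.132). Fn1 in Knockout 5 was at 32.1 CPM and in the other Knockout libraries at 4.23 to 17.3 CPM. Neither Timp1 nor Fn1 had groups that separated fully.

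Of 8 co-receptors and receptor partners, 4 were higher and 4 lower, with a median of -0.046. Acvrl1, an endothelial type I receptor, and Pmepa1, which retains receptor-activated SMADs, had log2 differences of -0.17 ± 0.09 and -0.20 ± 0.11 (edgeR unadjusted p of 0.0779 and 0.0979). Of 10 regulators of SMADs and receptors, 9 were higher, with a median of 0.097. The deubiquitinase gene Usp15 and the ubiquitin ligase gene Smurf2 were at 0.11 ± 0.07 and 0.24 ± 0.15. Of 6 SMAD partners 4 were higher, and the coactivator gene Crebbp (-0.16 ± 0.08) and the transcription factor gene Sp1 (0.43 ± 0.22) had the smallest p. Of 7 other family ligands and traps 6 were higher, among them Fstl1 (0.29 ± 0.26) and Bmp7 (0.18 ± 0.20).

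**Figure D5:**
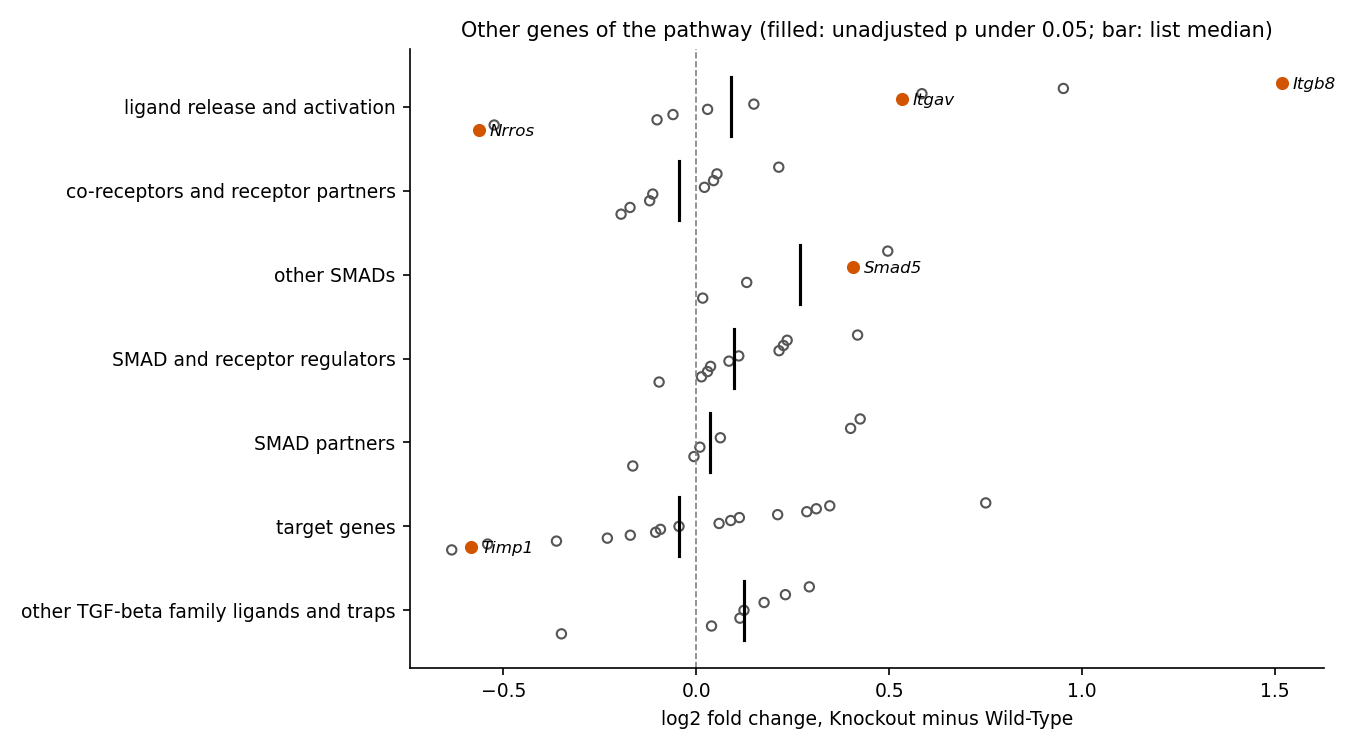
Each circle is a tested gene of the wider pathway list at its edgeR log2 fold change, Knockout minus Wild-Type, grouped by role, with vertical bars for the list medians. The 5 filled circles (Itgb8, Itgav, Smad5, Nrros and Timp1) had an unadjusted p under 0.05, and none passed after adjustment.

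No marker of the cell types that could carry these transcripts passed the adjusted threshold, and the directions of the lists were mixed. Over all genes tested, 12.4% had an edgeR unadjusted p under 0.05, the count given below for each list. Of 8 fibroblast markers 7 were higher in Knockout, 2 of them with such a p, and the list's sum was 211 to 484 CPM in Knockout, against 163 to 343 in Wild-Type. Of 8 luminal markers 7 were higher, 3 of them with such a p, with sums of 763 to 1078 and 589 to 1016 CPM. All 7 myoepithelial markers were higher, 2 of them with such a p, with sums of 371 to 508 and 288 to 493 CPM. All 8 milk protein genes were lower in the fit, with a median log2 difference of -0.27 and none with such a p. Of 10 adipocyte markers 8 were higher, 6 of them with such a p, with sums of 1511 to 2199 and 1351 to 1885 CPM. All 4 B cell markers tested were lower (median log2 difference -2.77, all 4 with such a p), as were all 5 T cell markers tested (median -1.27, 1 with such a p) and both lymph node stroma markers tested (1 with such a p). Of 7 macrophage markers 5 were lower and of 6 pericyte markers 5 were lower, with medians of -0.050 and -0.072, and 1 macrophage marker, lower, had such a p. Of 7 endothelial markers 5 were higher and of 5 blood markers 4 were lower, with medians of 0.056 and -0.055 and none with such a p. All 7 skeletal muscle markers were higher, with a median of 2.17 and none with such a p. Every marker list had ranges that overlapped between the groups, and the part of these lists in the values of the TGF-beta genes was not tested.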

How the data were processed

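Per the file headers, the deposited tables list for each of 58204 transcripts a length, an effective length, a TPM and an estimated count. The authors' values are in the layout of Salmon, and the submitters' processing notes name Salmon 1.3.0, DESeq2 1.28.1 and the build GRCm38.p6. The authors also deposited gene values called normalized counts, used here as a signal on their own scale for 1 alternative. Of transcripts with a coding sequence, 93.9% had a listed length at most 3 bases above its coding length.

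Estimated counts were summed per gene through GENCODE M21, which left out 752 transcripts (0.195% to 0.265% of reads), and rounded. Genes passing filterByExpr were tested with edgeR 4.0.16 (R 4.3.3), TMM scaling and the robust quasi-likelihood F test, genotype as the only term. Alternatives used DESeq2 1.42.0, limma 3.58.1, other filters and scalings, a replicate block and each library left out. Family and transcript shares were compared with exact two-sided permutation tests over libraries, for which the smallest possible p was 0.00216. Every library pair of a group differed beyond sampling noise. On simulated counts for this comparison (12716 genes), 93% of 100 genes changed 4-fold and 73% of 100 changed 2-fold were called. These percentages hold for the simulated counts, with that many genes changed at once. In the data edgeR called 7 genes in all. The percentages therefore cannot be read as the chance of calling a gene such as Tgfb3, with its fitted 2.02-fold difference. In coding sequences read in the sense direction, no member shared a 31-base word with another gene. Reverse complements were not compared, so the overlap of Tgfb3 with Ttll5 on the opposite strand was not covered. The labels name no molecular identifiers.

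The 10 genes and all lists were chosen with earlier results of these data known. Named pathway genes are the 2 with the smallest unadjusted p in each role group, with Itgav added after its values were seen, and for each of the 10 genes the gene with the highest within-genotype correlation, predicted genes passed over. Same-numbered libraries did not deviate together (correlations of -0.223 to 0.187 over 5 pairs), so the numbers were not treated as pairs.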

Additional observations from a re-analysis of the deposited data

Results flagged for a closer look

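In 70 sets of values, each 1 gene or share in 1 genotype, 6 libraries stood far from the rest of their group (a gap to the nearest library that took more of the group's range than Dixon's 95% limit). Chance alone would give about 3.5 if all values were normally spread, which does not hold for shares tied at their upper limit. The share of Tgfbr1 reads on its leading transcript was 80.2% in Knockout 4 and 26.7% to 38.1% in the other Knockout libraries. The Tgfbr2-201 share was 54.1% in Knockout 3, against 45.2% to 47.9%, and 48.6% in Wild-Type 4, against 58.0% to 60.3%. The leading transcript of Tgfbr3 took 98.1% of its reads in Knockout 6 and every read in the other Knockout libraries. That gap rests on 6.00 estimated reads of a 471-base transcript, and with the other libraries tied any deviation would be flagged. Pmepa1 was at 12.2 CPM in Knockout 5, against 9.66 to 10.6 CPM in the other Knockout libraries. Fn1 was at 12.6 CPM in Wild-Type 3, against 6.29 to 7.35 CPM in the other Wild-Type libraries.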

How the results depend on the processing

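Of 210 recomputed fold changes of the 10 genes, 203 kept direction and side of the threshold and 7 turned sign. The 7 were Ltbp1 with the replicate block (0.031) and in 5 of the fits that left out 1 library (range -0.16 to 0.095), and Smad2 without Wild-Type 1 (range -0.063 to 0.035). No fit brought any of the 10 genes past the threshold. Over all genes the count of calls was 7, against 146 with DESeq2, 0 with the replicate block, 13 without Knockout 1 and Knockout 2, and 0 to 28 with 1 library left out, the cause of which was not tested. It was 0 without Knockout 3 or Knockout 6, 2 without Knockout 1 or Wild-Type 3, 13 or 14 without Wild-Type 1, 4 or 5, and 28 without Knockout 2. Only replicate 3 of the 5 numbers correlated best with its own number, so the block follows no pairing in the design, and it brought no pathway gene past the threshold. With 1 library left out, the differences in leading transcript share had ranges of -0.047 to 0.080 points for Tgfb1, -10.1 to 5.23 for Tgfbr1 and -3.52 to 14.0 for Ltbp1. Low counts of Smad7, Ltbp1 and Itgb8 limit their precision, and intervals cover the spread between these libraries only.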
